A study of Arabidopsis thaliana with 30 samples.

Results

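Xyloglucan endotransglucosylase/hydrolases (XTHs) are secreted plant enzymes that cut xyloglucan, the main hemicellulose of the primary cell wall in Arabidopsis thaliana. They pass the cut end either to another xyloglucan chain or to water. Transcripts of 10 XTH genes were followed: XTH31 (AT3G44990), XTH32 (AT2G36870), XTH4 (AT2G06850), XTH9 (AT4G03210), XTH17 (AT1G65310), XTH18 (AT4G30280), XTH19 (AT4G30290), XTH20 (AT5G48070), XTH22 (AT5G57560, also called TCH4) and XTH24 (AT4G30270). They were found by these locus identifiers and are 10 of the 33 XTH genes and of 24721 genes with a value in any table. All 10 had values in all 9 deposited tables, and all 10 had a mean of at least 1 normalized count, the minimum for testing. XTH31 was chosen by its normalized counts, for its large difference between AA and CK in the sextuple line, and the other genes were added with earlier results of these data known. Differences between treatments are therefore described for the 10 genes with no p and no call gene by gene.

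RNA was sequenced from whole seedlings that were 10 days old. Antimycin A (AA) blocks the mitochondrial electron transport chain, and the labels give 50 µM for 5 h, with DMSO as the control (CK). By the study's methods the time was shorter. They also place all seedlings in liquid medium overnight, in the dark and with shaking, before treatment. Each group held 3 libraries, which the study calls biological replicates. The lines 2OX, 4OX and 6OX overexpress MCU2, MCU4 and MCU6, genes of the mitochondrial calcium uniporter, and the study's overexpressors carry a fusion to a fluorescent protein behind the 35S promoter. The sextuple line combines insertion and edited alleles over the 6 MCU genes and is described by the study as a knockdown. Wild type Col-0 (Col) is the reference for all lines. The groups were thus 2OX, 4OX, 6OX, the sextuple line and Col, each with AA and with CK.

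The treatment headings of the tables conflict. In the 5 AA tables, which set AA against CK within a genotype, all 15 columns headed AA equal, read for read, a column that a line table heads CK. The 4 line tables compare a line with Col and hold no column that the AA tables head CK. Treatment is named below by the heading of the AA tables, for every library, and no library was relabelled. Wording such as with AA or with CK means only these headings. The headings of the line tables would turn each AA direction round. AOX1A, the alternative oxidase gene known to be induced by AA, had 5198 to 11309 normalized counts in the 15 libraries headed AA (median 8033). It had 16392 to 32873 in the 15 headed CK (median 21560). AOX1D, the other antimycin marker examined, had 158 to 972 headed AA (median 355) and 2011 to 6105 headed CK (median 3507). Both markers thus ran against the headings of the AA tables.

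Depth ran from 2.56 to 39.1 M reads per library (M, 1e6 reads) with a median of 29.7 M. The shallowest library was 2OX headed AA, replicate 1. The Col libraries headed AA held 32.4 to 34.6 M reads, against 11.8 to 21.5 M in those headed CK. Nuclear rRNA took 0.0543% to 0.0692% of reads in Col headed AA and 1.54% to 6.64% in Col headed CK. Among the libraries headed AA, 4OX replicate 2 stood apart: it had the lowest XTH31, XTH4, XTH9 and XTH17 and the highest XTH18 and XTH22. Several 4OX results are given with and without it.

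Xyloglucan chains coat and link cellulose microfibrils, and XTHs remodel them as walls are laid down and as cells expand. XTH31 and XTH32 belong to the branch of the family whose studied member in Arabidopsis, XTH31, acts mainly as a hydrolase. XTH4 and XTH9 are known from growing shoots and stems. XTH17, XTH18, XTH19 and XTH20 form a clade known for expression in roots. XTH22 was first found as a gene induced by touch, and XTH24 (MERI5) as a gene of the shoot meristem.

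The catalytic stretch of the coding sequence shows how close the members are, and it is printed for 5 of them from RefSeq TAIR10.1. Capitals mark bases that differ from XTH18.
XTH18: gatgagattgatttcgagttcttagga
XTH17: gatgagatCgatttcgagttcttGgga
XTH4: gaCgagatAgaCttTgagttcCtTgga
XTH31: gatgagGtCgatAtcgagttTCtaggG
XTH32: gatgagGtAgaCAtAgaAttTttGggG

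Over these 27 bases XTH17 differed from XTH18 at 2 positions, XTH4 at 6, XTH31 at 6 and XTH32 at 9. The stretch starts at base 307 of the XTH18 coding sequence and at base 337 of that of XTH31. It was found in 9 of the 10 genes by the pattern used, and XTH9 gave no match. Over whole coding sequences, XTH17 and XTH18 were 92.2% identical, with a longest shared run of 47 bases. XTH18 and XTH19 were 89.2% identical with a run of 68, and XTH17 and XTH19 were 88.6% identical with a run of 51. XTH31 and XTH32 were 67.2% identical. The tool that counted the reads and its strand setting are not given in the sources used here, so reads of XTH17, XTH18, XTH19 and XTH20 may have been split between these copies.

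The likeness of XTH17 and XTH18 goes on upstream of the gene. The last 100 bases before each annotated gene start are printed because XTH17 was higher and XTH18 lower in libraries headed AA, as given below. Capitals mark the 73 bases that both share without a mismatch, directly before the gene start. XTH17 is on the plus strand (1:24256954-24257053) and XTH18 on the minus strand (4:14827212-14827311) of TAIR10.1.
XTH17: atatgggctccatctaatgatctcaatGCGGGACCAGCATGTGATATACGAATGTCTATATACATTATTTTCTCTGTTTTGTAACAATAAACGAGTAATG
XTH18: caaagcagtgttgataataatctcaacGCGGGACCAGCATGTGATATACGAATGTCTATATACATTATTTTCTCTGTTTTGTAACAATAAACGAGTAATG

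Between any other 2 members, the longest run shared in the 250 bases upstream of the gene start was 11 bases. XTH24, XTH18 and XTH19 lie side by side on the minus strand of chromosome 4, at 14819192-14820595, 14825757-14827211 and 14828712-14830224. In the 250 bases upstream of the gene start, searched on both strands, CGCG was found in XTH18 and XTH20, and in 10.1% of 27443 promoters of that length. The letters CACGTG (6.49% of promoters), TGTCTC (10.9%) and CGTGCG (1.57%) were found in 0 of the 10 windows, as was the mitochondrial dysfunction motif (1.75%). A match is only a description of the letters.

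Levels between genes were compared per kilobase of exon, on 1 scale over the 30 libraries. In Col headed AA, XTH24 had the highest level (19420 ± 3614 normalized counts per kb, SD, n = 3), followed by XTH4 (11136 ± 1620) and XTH18 (3121 ± 779). XTH31 came next (1508 ± 73.3), and its range overlapped that of XTH22 (1415 ± 277). The lowest levels per kb were those of XTH20 (231 ± 76.9) and XTH32 (179 ± 8.92), whose ranges overlapped. In Col headed CK the order from the top was XTH24, XTH4, XTH18, XTH22, XTH19, XTH17, XTH9, XTH20, XTH31 and XTH32, and no 2 neighbours overlapped. XTH31 there had a mean of 73.2 per kb and XTH32 of 40.5. XTH31 thus stood in place 4 of 10 in the libraries headed AA and in place 9 of 10 in those headed CK, by its median over the genotypes.

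**Figure D1:**
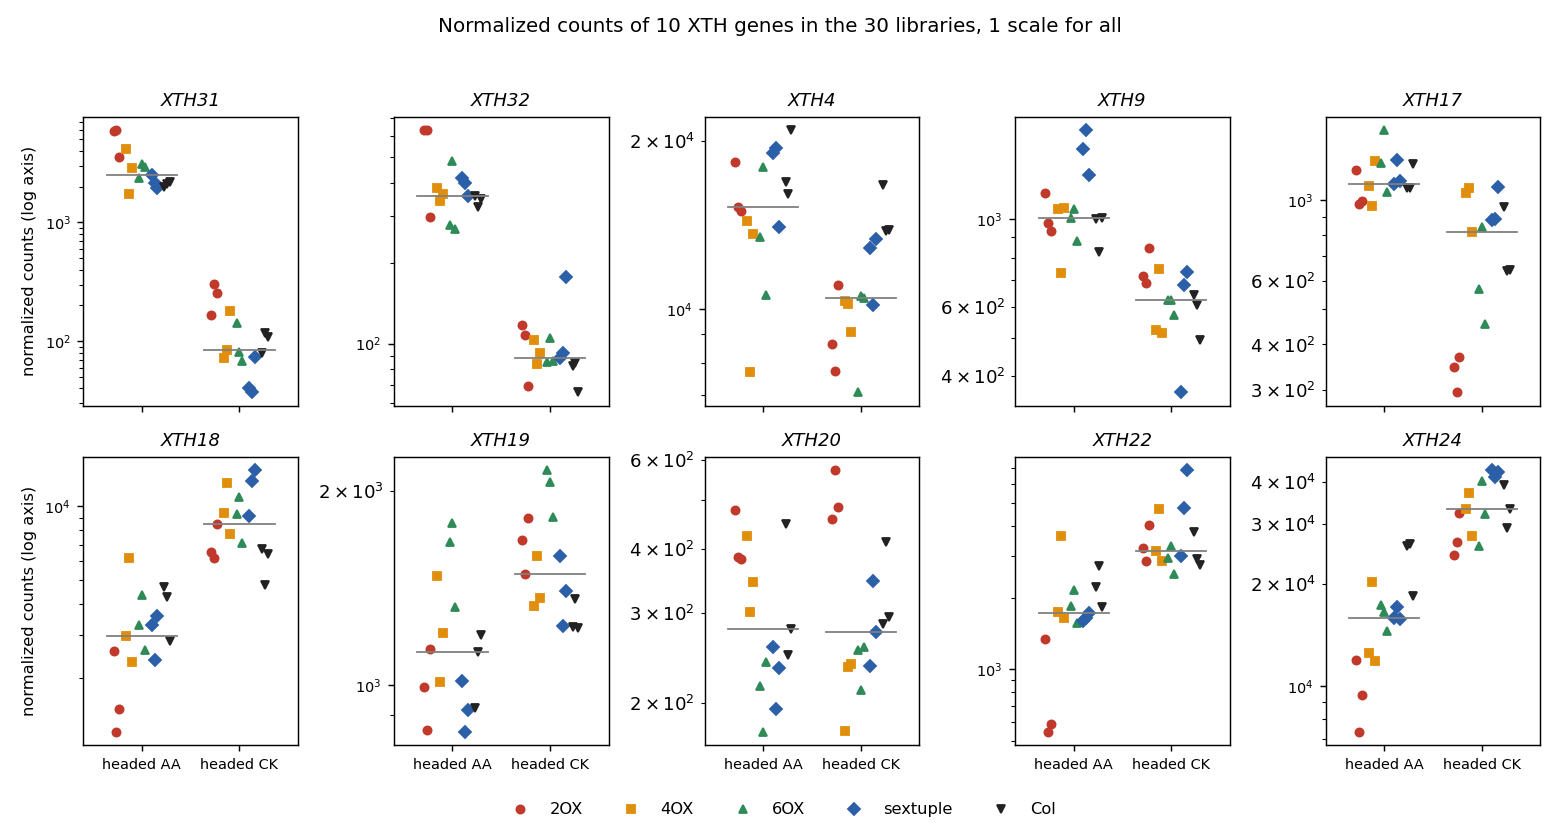
Normalized counts (log axis) of the 10 XTH genes in the 30 libraries on 1 scale, each panel 1 gene, 1 point a library, with libraries headed AA left of those headed CK and the grey line at the median of 15. XTH31 runs from 1741 to 6000 in libraries headed AA and from 37.0 to 301 in those headed CK, while XTH20 spans 175 to 478 and 176 to 574.

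The first comparison asked how the 10 genes differed between libraries headed AA and libraries headed CK within each genotype. XTH31 and XTH32 were higher in libraries headed AA in all 5 genotypes. XTH18, XTH22 and XTH24 were lower in all 5, and so was XTH19, except that scaling by library totals put it at 0.03 in 4OX and 0.02 in Col. That scaling moved the median log2 fold change of all genes up by 0.20 (2OX) to 0.29 (sextuple line). XTH4, XTH9 and XTH17 were higher in all 5 by smaller amounts, and XTH20 had no common direction. As a description only, the thresholds used for all genes (limma adjusted p under 0.05 and fold over 1.5) were met by 8 of the 10 in 2OX, 6 (4OX), 7 (6OX), 7 (sextuple line) and 4 (Col). Of all genes tested, 25.1% were called in 2OX, 25.7% (4OX), 26.3% (6OX), 26% (sextuple line) and 18.2% (Col). Nothing is read from these shares, since the genes were chosen with these contrasts known. Fewer cells of a type and less RNA per cell cannot be told apart in whole seedlings.

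XTH31 had 4366, 4459.9 and 2641 normalized counts in 2OX headed AA, against 124, 225 and 190.2 in 2OX headed CK. In 4OX it had 5322, 2236 and 3664 with AA and 92.8, 109 and 234 with CK. In 6OX it had 2434, 3172 and 2998 with AA and 145, 82.7 and 69.4 with CK. In each of these 3 lines the lowest library headed AA was above the highest headed CK. Of all genes tested, 47.3% had groups without overlap in 2OX, 49.1% (4OX), 44.6% (6OX), 43.7% (sextuple line) and 42.1% (Col). The sextuple line had 2871, 2431 and 2199.8 with AA and 46.1, 42.1 and 82.9 with CK. Col had 1825, 1903 and 1994 with AA and 70.4, 105 and 98.7 with CK. The fold was 44.8 in the sextuple line, where the CK values were lowest, and 21.2 (2OX), 26.2 (4OX), 29.998 (6OX) and 21.0 in Col. On the log2 scale these were 5.49 (SE 0.26), 4.41 (SE 0.25), 4.71 (SE 0.38), 4.91 (SE 0.25) and 4.39 (SE 0.16). Without 4OX headed AA replicate 2, the 4OX value was 5.04.

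XTH32, the close relative of XTH31, followed at a lower level. Over the 30 libraries it had 269 to 632 normalized counts with AA (median 357) and 65.6 to 178 with CK (median 88.5). Its log2 fold change ran from 1.78 (SE 0.27) in the sextuple line to 2.33 (SE 0.33) in 2OX. In 2OX headed AA the libraries were uneven, with 465, 469.7 and 224 normalized counts, against 88.5, 80.3 and 51.9 in 2OX headed CK.

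XTH9 had 1714, 1919.8 and 1468 normalized counts in the sextuple line headed AA, against 412, 777 and 832 in the same line headed CK. Its log2 fold change of 1.39 (SE 0.26) there compared with 0.44 (2OX), 0.67 (4OX), 0.69 (6OX) and 0.73 in Col. With 1 library left out, the sextuple value ran from 1.07 (without CK replicate 1) to 1.58 (without CK replicate 3). XTH4 was among the most abundant members and differed less, with log2 fold changes from 0.21 in 4OX to 0.83 in 2OX. Without 4OX headed AA replicate 2, the 4OX values were 0.50 for XTH4 and 0.85 for XTH9.

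Within the root clade the members went apart. XTH17 had 896, 728 and 743 normalized counts in 2OX headed AA, against 260.4, 219.8 and 276 in 2OX headed CK, a log2 fold change of 1.64 (SE 0.15). It stood at 1.08 in 6OX and 0.66 in Col, with 0.17 in 4OX and 0.31 in the sextuple line. XTH18 had 1904, 896 and 1121 in 2OX headed AA, against 4906, 4617 and 6363 in 2OX headed CK. Its log2 fold change was -2.08 (SE 0.24) in 2OX, -1.48 (4OX), -1.42 (6OX), -1.96 (sextuple line) and -0.59 (Col). The libraries of XTH18 in Col overlapped, with 4309, 3866 and 2568 headed AA and 5941, 4260.1 and 5777 headed CK. XTH19 stood at -0.76 (2OX) and -0.60 (sextuple line), and between -0.35 and -0.22 in the other genotypes. By library totals it stood at -0.55 (2OX) and -0.30 (sextuple line). XTH20 was highest relative to CK in 4OX (0.71, with 545, 387 and 444 headed AA against 228, 304 and 308 headed CK). Elsewhere it lay between -0.32 and -0.03.

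XTH22, the touch gene, had 987, 405 and 442 normalized counts in 2OX headed AA and 2439, 2129 and 3012 in 2OX headed CK. The sextuple line had 1813, 1869 and 1942 with AA and 3394, 5424 and 7809 with CK. Its log2 fold change was -2.15 (SE 0.29) in 2OX, -1.48 (SE 0.26) in the sextuple line, -0.66 in 6OX, -0.68 in 4OX and -0.46 in Col. XTH24, the most abundant member, had 8809, 5437 and 7012 in 2OX headed AA, against 18206, 19786 and 24158 in 2OX headed CK. Its log2 fold change was -1.56 (2OX), -1.18 (4OX), -1.004 (6OX), -1.39 (sextuple line) and -0.51 (Col). Without 4OX headed AA replicate 2, XTH22 stood at -1.05, XTH24 at -1.43 and XTH18 at -1.89 in 4OX. Without 2OX headed AA replicate 1, the shallow library, XTH22 stood at -2.56 in 2OX.

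**Figure D2:**
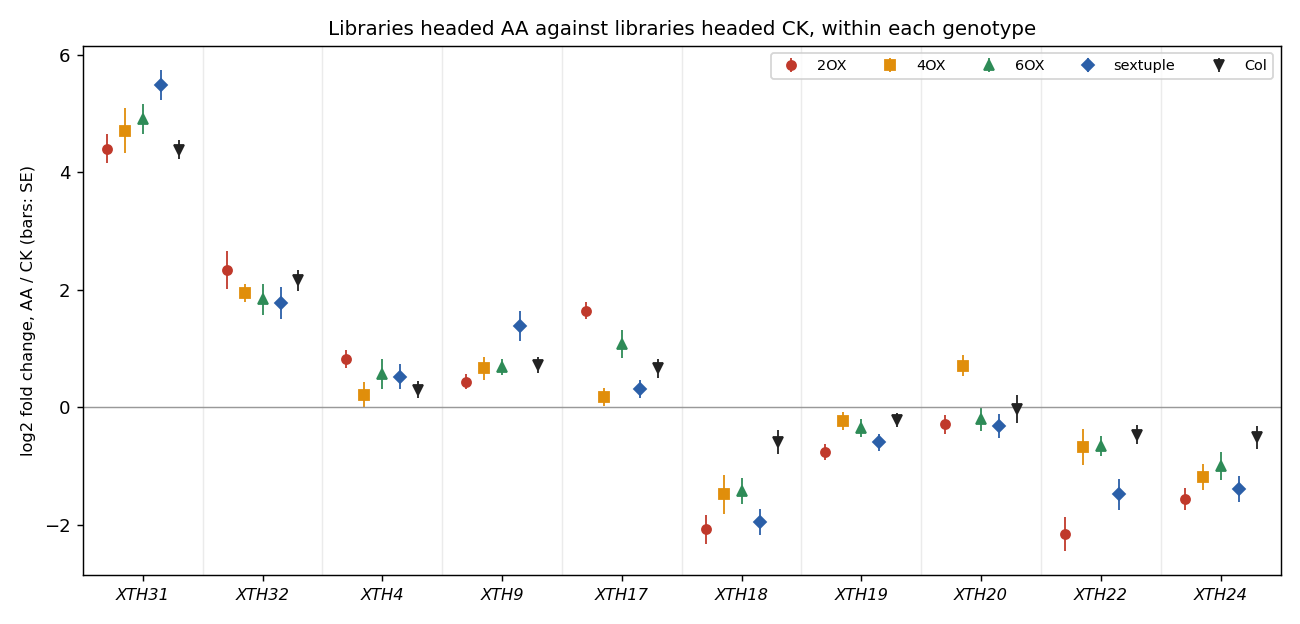
Log2 fold change of libraries headed AA over those headed CK (y axis, bars SE, n = 3 against 3) for the 10 XTH genes in 5 genotypes, with no calls marked. XTH31 lies between 4.39 and 5.49 and XTH32 between 1.78 and 2.33, while XTH18, XTH19, XTH22 and XTH24 lie below 0 in all 5 genotypes (by library totals, XTH19 is at 0.03 in 4OX and 0.02 in Col).

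The rest of the XTH family was examined with the same fit. This list and the wall and marker lists below were set with earlier results of these data known. Their p values are not independent of that choice, and their counts are a description. Of these 23 genes, 20 were tested. Called higher with AA were 10 (2OX), 9 (4OX), 10 (6OX), 11 (sextuple line) and 9 (Col), against 11%, 12.8%, 12.6%, 12.6% and 10.4% of all genes. Called lower were 4, 4, 3, 4 and 1 of the 20, against 14.1%, 12.9%, 13.7%, 13.4% and 7.81% of all genes. XTH6, XTH7, XTH8, XTH12, XTH13, XTH14, XTH21, XTH26 and XTH33 were called higher in all 5 genotypes, and XTH30 was called lower in all 5. The median log2 fold change of the list was 0.77 (2OX), 0.44 (4OX), 0.67 (6OX), 0.75 (sextuple line) and 0.92 (Col), and the medians of all genes were -0.04, 0.02, 0.02, 0.02 and 0.02. The called gene with the largest rise was XTH13 in 2OX (6.65 on the log2 scale, limma adjusted p = 5.99e-05), 4OX and the sextuple line, XTH12 in 6OX (7.41, limma adjusted p = 1.58e-05) and XTH26 in Col. The largest fall was that of XTH29 in all lines (-3.49 in 2OX) and of XTH30 in Col (-1.22).

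**Figure D3:**
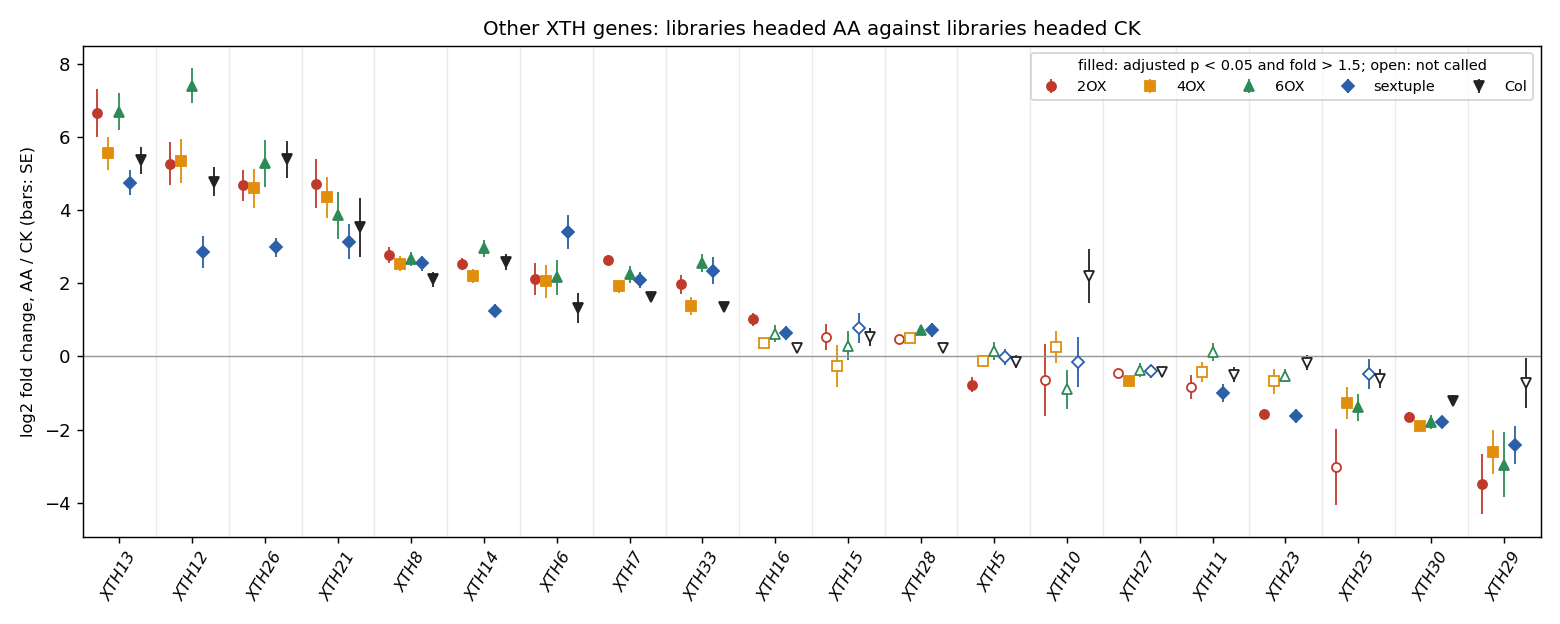
Log2 fold change of libraries headed AA over those headed CK (y axis, bars SE, n = 3 against 3) for the 20 other XTH genes tested, ordered by their median over 5 genotypes, with filled points for called genes. The 9 genes at the left are called higher in every genotype, and XTH30 is called lower in every genotype.

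Genes that make or loosen the same wall were counted beside them. These lists too were chosen with earlier results known, so nothing is read from their shares. Alpha-expansins, which loosen walls without cutting them, were called higher in 15 of 18 in 2OX and 4OX and in 14 of 18 in 6OX, the sextuple line and Col, against 10.4% to 12.8% of all genes over the 5 genotypes. Their median log2 fold changes were 2.11, 2.49, 1.99, 1.80 and 1.90, in the order 2OX, 4OX, 6OX, sextuple and Col. Of 14 xyloglucan synthesis genes, 6, 8, 9, 7 and 8 were called higher in that order against the same share of all genes, and CSLC8, CSLC12 and XLT2 were called in all 5. Of 3 xyloglucan trimming genes, XYL1, an alpha-xylosidase, was the only one called in any genotype. It was called higher in all 5, against the same share of all genes. Of 6 primary wall cellulose synthase genes, 1, 2, 2, 1 and 3 were called higher in that order, against the same share of all genes. CESA5 was among them in all 5. Of the 3 other touch genes, CML12 was called lower in all 5 and CML24 was called higher in 4 of the 5. Of all genes, 7.81% to 14.1% were called lower and 10.4% to 12.8% higher. Genes named here for a call in all 5 genotypes were chosen after their values were seen.

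Markers of 2 organs were summed by the same headings. The 7 root markers (SCR, SHR, WER, PLT1, PLT2, COBL9 and RHD6) summed to 1043.5 to 1552 normalized counts in libraries headed AA and 472 to 928 in those headed CK. Of the 7, 2 were called higher in 2OX, 5 (4OX), 3 (6OX), 4 (sextuple line) and 2 (Col), against 10.4% to 12.8% of all genes. None was at 0 in a library headed AA, and 2 were at 0 in at least 1 Col library headed CK. The 6 leaf markers (RBCS1A, RBCS3B, CAB1, LHCB2.1, LHCB4.1 and FAMA) summed to 73294 to 475267 with AA and 167917 to 605299 with CK, so these sums overlapped, and all 6 were above 0 in every library. Of the 6, 2 were called lower in 2OX, 1 (4OX), 1 (6OX), 1 (sextuple line) and 2 (Col), against 7.81% to 14.1% of all genes, and LHCB2.1 was among them each time. Both organs were thus present by their markers. The part of the root markers in the XTH differences was not tested. In Col, depth and the rRNA share also went with the heading, and their part cannot be told apart from that of the treatment.

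The second comparison asked how each MCU line differed from Col, in the line tables. The AA tables head these same libraries AA. The 4 comparisons share the 3 Col libraries, and each table was normalized on its own. Of the 10 members, 4 were called in 2OX, against 6.7% of all genes tested. In 4OX and 6OX 0 were called, against 5.53% and 0.199% of all genes. In the sextuple line XTH31 was left out of the count, and 1 of the other 9 was called, against 1.53% of all genes.

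XTH31 was higher in 2OX. It had 4886, 5140.3 and 2989 normalized counts in 2OX and 1668, 1756 and 1853 in Col, so that the groups did not overlap, as for 33.7% of all genes. The fold was 2.40, or 1.26 on the log2 scale (SE 0.19, limma adjusted p = 0.00598). The root clade member XTH18 fell to 2131, 1033 and 1268 in 2OX, against 3939, 3568 and 2387 in Col (-1.20, SE 0.26, limma adjusted p = 0.0246). XTH22 fell to 1105, 467 and 499.7 in 2OX, against 1845, 2258 and 1543 in Col (-1.55, SE 0.30, limma adjusted p = 0.015). XTH24 fell to 9859, 6267 and 7936 in 2OX, against 21585, 21855 and 15546 in Col (-1.30, SE 0.19, limma adjusted p = 0.00588). In these 3 genes too, each 2OX library was below each Col library.

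The other 6 members in 2OX were not called. Their log2 fold changes were 0.53 for XTH32 (limma adjusted p = 0.245), 0.40 for XTH20, 0.13 for XTH9, -0.10 for XTH17, -0.11 for XTH19 and -0.14 for XTH4. The call of XTH32 turned on 1 library: without 2OX replicate 3, which had 253 normalized counts beside 521 and 541, its log2 fold change was 0.88 (limma adjusted p = 0.00611). Without 2OX replicate 2, XTH18 stood at -0.97 (limma adjusted p = 0.101) and XTH22 at -1.32 (limma adjusted p = 0.0725). Without Col replicate 1 they stood at -1.05 (0.109) and -1.55 (0.0638), and without Col replicate 2 at -1.12 (0.0881) and -1.41 (0.0596), all limma adjusted p, so each of these 3 libraries left 2 members called. XTH31 and XTH24 kept their calls when any 1 library was left out. Without the mean-variance trend in limma none of the 4 was called, with adjusted p = 0.0705 for XTH24 and 0.076 for XTH31.

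In 2OX the leaf markers also differed from Col, with 4 of 6 called lower, against 3.44% of all genes. Their median log2 fold change was -0.70, against -0.04 over all genes. Of the 20 other XTH genes tested in 2OX, 3 were called higher and 3 lower, against 3.26% and 3.44% of all genes. The largest rise was that of XTH21 (1.45, limma adjusted p = 0.0464) and the largest fall that of XTH15 (-2.27, limma adjusted p = 0.000996). The part of the leaf markers in the XTH differences was not tested.

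XTH9 was the member called in the sextuple line. It had 2027, 2275 and 1745 normalized counts there and 1335, 1104 and 1358 in Col, with no overlap, as for 27.1% of all genes (0.67, SE 0.12, limma adjusted p = 0.0293). The call was lost when sextuple replicate 1 (adjusted p = 0.1), sextuple replicate 2 (0.0786), Col replicate 1 (0.173) or Col replicate 2 (0.0952) was left out of the limma fit. XTH24 (-0.51, limma adjusted p = 0.0945) and XTH22 (-0.42, limma adjusted p = 0.0975) were lower without passing. XTH31 differed little here, with 3395, 2881 and 2614 in the sextuple line and 2664, 2808 and 2958 in Col (log2 fold change 0.07), and no p is given because these sextuple libraries served to choose it.

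In 4OX, XTH24 had 17067, 27989.8 and 16316 normalized counts, against 35176, 35609 and 25384 in Col (-0.68, limma adjusted p = 0.106). XTH4 had 19686, 10661 and 18819 in 4OX and 23069, 21807 and 28835 in Col (-0.63, limma adjusted p = 0.136). XTH31 had 5671, 2412 and 3927 in 4OX and 2719, 2861 and 3026 in Col (0.40, limma adjusted p = 0.373). For the 0 members called by limma in 4OX, 2 had an unadjusted p under 0.05, as had 6739 of all 23295 genes tested. There edgeR called 0 and DESeq2 called 1, XTH24. Without 4OX replicate 2, the library that stood apart, the log2 fold change was -0.92 for XTH24, -0.34 for XTH4 and 0.72 for XTH31. That library was singled out by the values of these XTH genes, XTH31 among them. A p from the fit without it would rest on that choice, so none is given and no call is read from it. With all 3 libraries, 4OX lay on both sides of the Col range for XTH31.

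In 6OX, XTH19 had 2177, 2335 and 1735 normalized counts, against 1202, 1453 and 1556 in Col, with no overlap, as for 21.5% of all genes (0.57, limma adjusted p = 0.14). XTH31 had 3125, 4052 and 3884 in 6OX and 2599.6, 2719.9 and 2869 in Col, again with no overlap (0.43, limma adjusted p = 0.176). XTH20 (-0.58) and XTH24 (-0.52) were lower without passing. For the 0 members called by limma in 6OX, 4 had an unadjusted p under 0.05, as had 3575 of all 23170 genes tested. There edgeR and DESeq2 called 0 each.

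**Figure D4:**
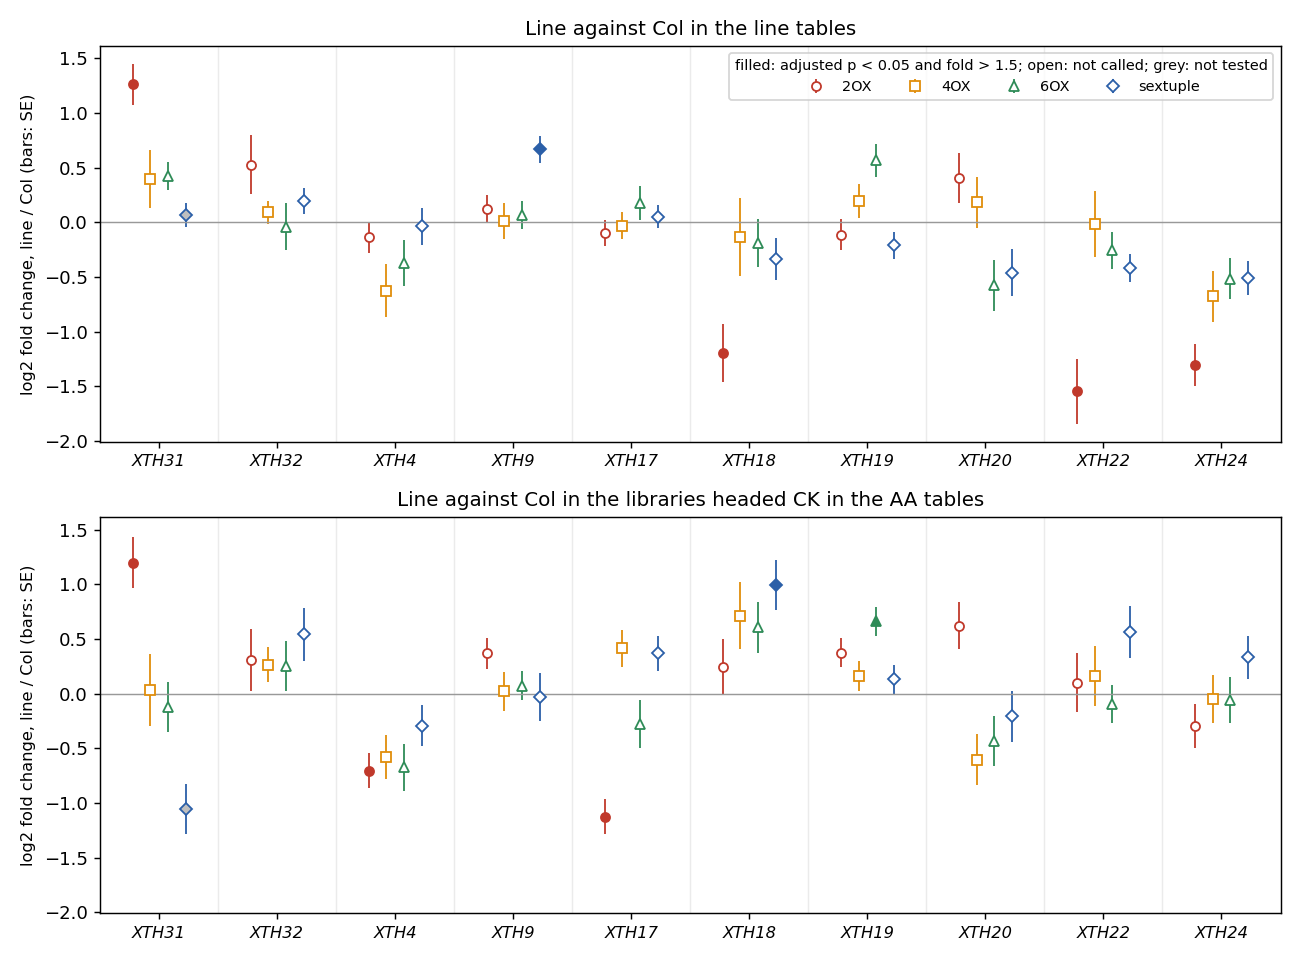
Log2 fold change of each line over Col (y axis, bars SE, n = 3 against 3) for the 10 XTH genes, in the line tables (top) and in the libraries headed CK in the AA tables (bottom), with filled points for called genes and grey for XTH31 in the sextuple line, which was not tested. XTH31 is called higher in 2OX in both panels (1.26 and 1.20), and XTH18, XTH22 and XTH24 are called lower in 2OX only in the top panel.

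The same comparison was made in the other 15 libraries, those headed CK in the AA tables, on recovered reads with 1 set of size factors for each line and Col. These share no library with the line tables. Of the 10 members, 3 were called in 2OX, 0 (4OX), 1 (6OX) and, with XTH31 left out, 1 (sextuple line), against 14.2%, 6.5%, 2.32% and 5.38% of all genes tested. Values below are on the scale over the 30 libraries.

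XTH31 was again higher in 2OX. It had 165, 301 and 254 normalized counts in 2OX and 79.3, 117 and 109 in Col (1.20, SE 0.23, limma adjusted p = 0.00241). Its level was far lower in both groups than in the line tables, where its log2 fold change was 1.26. XTH17 fell to 347, 295 and 369 in 2OX, against 958, 637 and 641 in Col (-1.13, SE 0.16, limma adjusted p = 0.000338). XTH4 fell to 8662, 7732 and 11044 in 2OX, against 16666, 13779 and 13858 in Col (-0.71, SE 0.16, limma adjusted p = 0.00655). In each of these 3 genes the groups did not overlap, as for 39.6% of all genes. XTH18 (0.25), XTH22 (0.10) and XTH24 (-0.29) were not called here. The antimycin marker AOX1A was also higher in 2OX than in Col in these libraries (0.80, limma adjusted p = 0.00442). Of the 6 leaf markers, 4 were called lower, against 1496 of all 22650 genes tested. The part of AOX1A and of the leaf markers was not tested.

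In the sextuple line, XTH18 rose to 9133, 12682 and 14123 normalized counts, against 6692, 4774 and 6401 in Col (1.00, SE 0.23, limma adjusted p = 0.0228). The call was lost without sextuple replicate 2 (limma adjusted p = 0.0985) or Col replicate 2 (limma adjusted p = 0.0953). Without sextuple replicate 1, XTH22 was called as well (0.88, limma adjusted p = 0.0116). XTH31 had 40.7, 37.0 and 73.3 in the sextuple line and 79.3, 117 and 109 in Col, a log2 fold change of -1.06. It was not tested, because these sextuple libraries are the lower side of the contrast for which it was chosen. In 6OX, XTH19 rose to 2155, 2064 and 1821, against 1232, 1360.5 and 1224 in Col (0.66, SE 0.13, limma adjusted p = 0.0221). Leaving out 6OX replicate 1 or 2, or any 1 of the Col libraries, ended that call, with adjusted p between 0.0561 and 0.106 by limma. For the 0 members called by limma in 4OX, 4 had an unadjusted p under 0.05, as had 6724 of all 22785 genes tested. There edgeR and DESeq2 called 0 each.

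The third comparison set the difference between AA and CK in a line against that in Col, as an interaction term fitted to the 12 libraries of both genotypes. All 4 tests share the 6 Col libraries. The genes were chosen with the contrasts of AA and CK known, and the interaction is built from those contrasts. Its p values are therefore not independent of that choice. Of the 10 members, 3 were called in 2OX, against 5.38% of all genes tested. In 4OX, 6OX and, with XTH31 left out, the sextuple line 0 were called, against 0.426%, 0.0044% and 0.814% of all genes.

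XTH17 was higher with AA by 1.64 in 2OX and by 0.66 in Col on the log2 scale, and the difference of 1.02 passed (SE 0.23, limma adjusted p = 0.0204). XTH18 stood at -2.08 in 2OX and -0.59 in Col, a difference of -1.45 (SE 0.35, limma adjusted p = 0.0299). XTH22 stood at -2.15 in 2OX and -0.46 in Col, a difference of -1.65 (SE 0.38, limma adjusted p = 0.0237). XTH24 came next without passing (-1.02, SE 0.29, limma adjusted p = 0.0535). Its call turned on the fit: edgeR (adjusted p = 0.0247) and DESeq2 (adjusted p = 0.00337) called it. So did limma with library totals, TMM, a mean of at least 10 or 1 fit over all libraries. Other pseudocounts, no filter, the replicate block, no trend and the stricter thresholds left it uncalled. For XTH31 the difference was 0.06 (SE 0.33, limma adjusted p = 0.941). None of the 3 calls held in every fit that left out 1 library. Without Col headed AA replicate 1 the adjusted p was 0.0654 for XTH17, 0.0926 for XTH18 and 0.0607 for XTH22, and without Col headed AA replicate 2 it was 0.0593, 0.0814 and 0.07, all by limma. Leaving out 2OX headed AA replicate 2, 2OX headed CK replicate 2 or 3, or Col headed CK replicate 2 left 1 member called each time. Without the shallow 2OX library, 4 members were called.

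**Figure D5:**
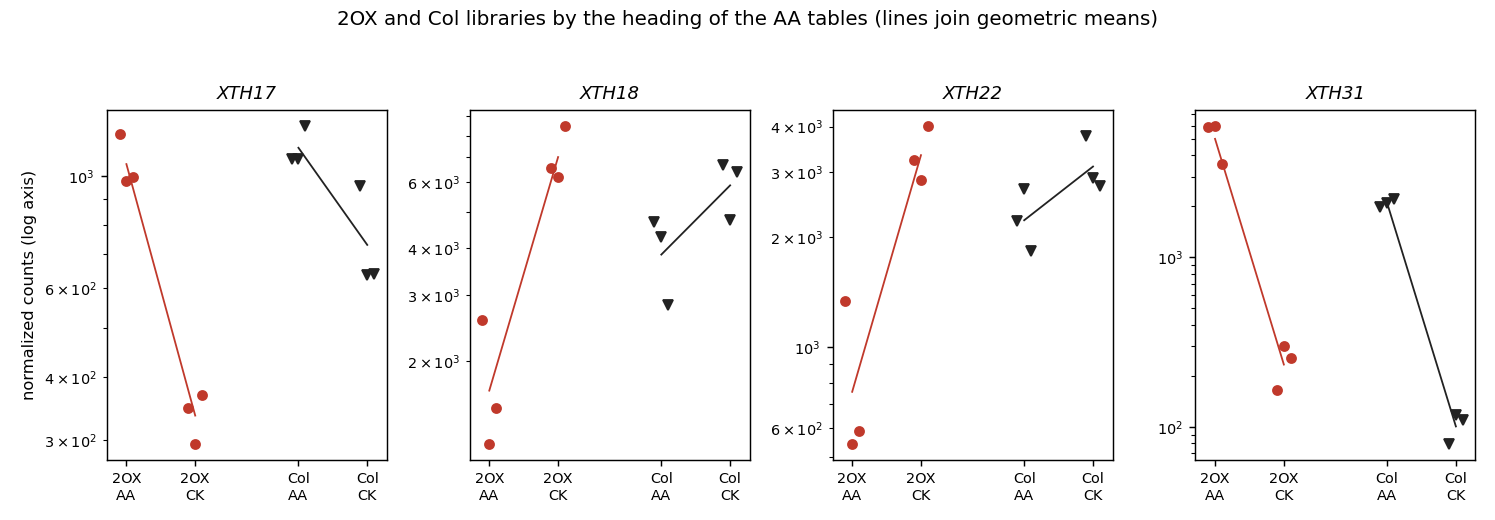
Normalized counts (log axis, scale over the 30 libraries) of XTH17, XTH18, XTH22 and XTH31 in the 6 libraries of 2OX and the 6 of Col, by the heading of the AA tables, with lines joining geometric means. The slope is steeper in 2OX for XTH17, XTH18 and XTH22, with interactions of 1.02, -1.45 and -1.65, and XTH31 has an interaction of 0.06.

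In the sextuple line the interaction was -1.36 for XTH18 (SE 0.32, limma adjusted p = 0.0666), -1.01 for XTH22 (limma adjusted p = 0.159) and -0.87 for XTH24 (limma adjusted p = 0.146). XTH31, described without a test, had 1.10 (SE 0.32). Of the other 9, DESeq2 called 3 in this test (XTH18, XTH22 and XTH24). By limma, 4 of the 9 had an unadjusted p under 0.05 in the sextuple line, and of the 10 members 1 in 4OX and 1 in 6OX. Of all genes tested, 3519 of 22716 (sextuple line), 2938 of 22785 (4OX) and 3068 of 22713 (6OX) had one. edgeR called 0 in each of these 3 lines, and DESeq2 called 0 in 4OX and 6OX.

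Over the 30 libraries the members fell into sets by their Pearson correlation of log2 values, given as a description. The libraries share 10 groups and the headings, so the correlations within each heading (n = 15) stand beside those over all (n = 30). XTH18, XTH22 and XTH24 went together, with r of 0.93 for XTH18 and XTH22, 0.93 for XTH18 and XTH24 and 0.90 for XTH22 and XTH24. Within headings these were 0.94, 0.86 and 0.87 for AA and 0.73, 0.62 and 0.57 for CK. XTH31 and XTH24 ran against each other, with r of -0.90 over all, -0.81 within AA and -0.77 within CK. XTH31 and XTH32 had r of 0.93 over all and 0.66 within AA, but -0.10 within CK, where XTH32 is near its lowest level. XTH17 and XTH18, with the shared upstream run, had r of -0.38 over all, 0.17 within AA and 0.58 within CK.

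The 5 genes whose pattern was most like that of XTH31 were taken from 17783 genes with a mean of at least 50. They were AT3G13560 (r 0.98), WAT1 (0.98), AT3G61820 (0.97), AT2G26730 (0.97) and AT5G07030 (0.97), over 30 libraries. WAT1 (Walls Are Thin 1), a vacuolar auxin transporter needed for secondary walls in stem fibres, had 2635 to 4253 normalized counts with AA and 1028 to 1734 with CK. AT3G13560 had 322 to 545 with AA and 71.0 to 158 with CK. Within the headings the correlations of the 5 genes were 0.43 to 0.70 for AA and 0.65 to 0.83 for CK.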

How the data were processed

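RNA-seq libraries of whole seedlings were mapped by the authors to TAIR10, and the submitters' processing notes name Bowtie 0.12.2. The study's methods name RPKM values, but the deposited tables hold a signal per gene, namely read counts divided by 1 size factor per library. The tool that counted reads is not given in the sources used here. Whole reads were recovered for 1266084 of 1266084 values (100%, tolerance 0.02). The authors' own means, fold changes and p-values in the same tables were not used. limma 3.58.1 with a mean-variance trend (R 4.3.3, two-sided) was run on log2(value + 1), a scale that understates changes of low genes, for genes with a mean of at least 1. A call needed a Benjamini-Hochberg adjusted p under 0.05 over all genes tested and, except for interactions, a fold over 1.5. Alternatives were pseudocounts of 0.5 and 5, a mean of at least 10 or no filter, library totals, TMM, edgeR 4.0.16, DESeq2 1.42.0, no trend, stricter thresholds, each library left out, a joint fit of all libraries and a replicate block. The 10 genes and all lists were chosen with earlier results of these data known. All 10 genes are named, and of the other XTH genes and each list the called gene with the largest rise or fall. Sequences were read from RefSeq TAIR10.1 (Biopython 1.88). The fits of AA against CK in 2OX and the sextuple line were checked beforehand on simulated reads. There 200 genes were given known changes, with 1 fixed spread for all genes. The comparisons of lines with Col and the interactions were not simulated.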

Additional observations from a re-analysis of the deposited data

Results flagged for a closer look

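For 3 of the 10 genes the difference between AA and CK in 2OX differed from that in Col by the test of the interaction. On the log2 scale the interaction was 1.02 for XTH17 (limma adjusted p = 0.0204), -1.45 for XTH18 (limma adjusted p = 0.0299) and -1.65 for XTH22 (limma adjusted p = 0.0237). For XTH17 the 3 libraries of 2OX headed CK, with 347, 295 and 369 normalized counts on the scale over the 30 libraries, were below all other libraries headed CK. XTH18 and XTH22 stood further below 0 in 2OX than in Col. XTH24 did not pass by limma (-1.02, adjusted p = 0.0535), but edgeR and DESeq2 called it. Each sign follows the headings of the AA tables and would turn round under the opposite headings. None of the 3 calls held in every fit with 1 library left out. The genes were chosen with the contrasts of AA and CK known, so these p values are not independent of that choice.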

How the results depend on the processing

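Over the line tables, the libraries headed CK and the interactions, 2574 tested values of the members were recomputed. Of these, 2418 kept direction and call, 53 lost a call, 31 gained one and 72 changed sign, 0 of them a called value. Of 900 values for AA, which were not tested, 8 changed sign. Without the mean-variance trend, limma called 0 members in the sextuple line and 2OX against Col, 0 in 6OX and the sextuple line against Col headed CK, and 0 in the 2OX interaction. The counts for AA in Col, 4OX and 6OX also fell without it. At a fold over 2 and an adjusted p under 0.01, 2 were called in 2OX against Col, 2 for AA in Col and 4 for AA in 6OX, and 0 in the sextuple line against Col, in 6OX and the sextuple line against Col headed CK, and in the 2OX interaction. These thresholds also lowered the counts for AA in 2OX, 4OX and the sextuple line and for 2OX against Col headed CK. DESeq2 called 1 in 4OX against Col, 2 in 6OX against Col headed CK and 3 in the sextuple interaction. In the 2OX interaction both edgeR and DESeq2 called XTH24 as well. One fit over all libraries called 1 for 4OX and 0 for the sextuple line against Col. XTH31 is in none of the sextuple counts other than those for AA.

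Replicate numbers were not taken as pairs, since in no comparison did all 3 same-numbered pairs correlate over 0.1 in their deviations. With a replicate block, 2 members (XTH4 and XTH24) were called for 4OX and 0 for the sextuple line against Col, 5 for AA in Col and 6 for AA in the sextuple line, and the other counts were as without the block. For AA in 4OX the 6 were not the same genes, since XTH9 went out and XTH22 came in.

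With 1 library left out, 2 to 5 members were called in 2OX against Col, 0 to 2 in 4OX, 0 in 6OX and 0 to 1 in the sextuple line. Headed CK, these lines gave 3 to 4, 0 to 1, 0 to 1 and 0 to 2. For AA the counts were 8 in 2OX, 4 to 7 in 4OX, 6 to 7 in 6OX, 6 to 7 in the sextuple line and 3 to 5 in Col. The interactions gave 0 to 4 in 2OX, 0 in 4OX and 6OX, and 0 to 2 in the sextuple line. For 4OX against Col, the only calls came from the fit without 4OX replicate 2, the library that stood apart, and none is read from it. The 7 for AA in 4OX came from leaving out that same library.

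For AA, library totals put XTH19 at 0.0265 in 4OX and 0.0171 in Col and XTH20 at 0.0708 in 6OX and 0.206 in Col. Headed CK, the sign changed in 20 values of XTH9, XTH22, XTH24 and XTH31, the farthest being -0.368 for XTH31 in 4OX (0.03 as reported). The interactions had 29 such values, among them XTH31 in 2OX (-0.192 to -0.00566). In 4OX against Col, library totals put XTH17 at 0.0523 and XTH22 at 0.0705, edgeR put XTH22 at 0.0705, DESeq2 put it at 0.0755, and 1 fit over all libraries put XTH9 at -0.00507. In 6OX against Col, XTH32 was at 0.0185 by edgeR and 0.0136 by DESeq2. With 1 library left out, 4OX against Col ran from -0.137 to 0.0663 for XTH17, -0.384 to 0.195 for XTH22, -0.0885 to 0.186 for XTH9 and -0.548 to 0.163 for XTH18. In 6OX the range was -0.312 to 0.107 for XTH32 and -0.0275 to 0.146 for XTH9. In the sextuple line it was -0.033 to 0.156 for XTH31, -0.0175 to 0.13 for XTH17 and -0.124 to 0.117 for XTH4. The cause of these shifts was not tested. With 3 libraries a group, changes within the spread between libraries cannot be resolved.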
